A study of Sus scrofa with 2 samples.

Results

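Syncollin (SYCN), glycoprotein 2 (GP2), the trypsin inhibitor SPINK1, tissue kallikrein (KLK1) and cystatin C (CST3) were followed across the cell classes of the pig pancreas and set against the digestive enzymes of the same nuclei. These 5 genes were chosen by symbol out of the 31908 genes listed, and all 5 were detected in both libraries. SYCN carries no symbol in the deposited gene table, and its identifier ENSSSCG00000021959 was named from the reference gene table. On Sscrofa11.1 the RefSeq annotation places SYCN at chr6:47931030-47933405, GP2 at chr3:25496533-25518210, SPINK1 at chr2:149072652-149079529, KLK1 at chr6:55570632-55576398 and CST3 at chr17:30471056-30474486, each span being the whole gene. The enzyme list held 15 genes with a symbol in the files, from trypsinogen PRSS2 to the lipases. Amylases, CTRB1 and the CELA3 genes were on the list without a matching symbol and were not analysed here.

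Nuclei came from 1 wild-type (WT) Bama pig and 1 PIGinH11 Bama pig, each 18 months old. PIGinH11 pigs carry a knock-in of GIPRdn (a dominant-negative incretin receptor), hIAPP (human islet amyloid polypeptide) and PNPLA3I148M (a variant of a lipid droplet protein) at the H11 locus, under promoters specific to beta cells or liver, so that acinar cells are not the intended site of the transgenes. Both pigs ate control diet for 6 months and then 12 months of a high-fat and high-sucrose diet (HFHSD) in which 10% pork lard and 37% sucrose were added to 53% control diet, so there was no group without the diet. About 0.2 g of pancreas body was taken per pig for 10x 3′ single-nucleus RNA sequencing. With 1 library per group no test between groups is possible, the genotype cannot be told apart from the animal or the library, and all intervals below are exact 95% intervals that cover counting error only.

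Acinar cells pack their digestive enzymes as inactive zymogens into granules that fuse with the apical membrane when the cell is stimulated. The granule carries more than enzymes. Membrane-associated proteins such as GP2 and syncollin travel with it, and SPINK1 blocks trypsin that becomes active too early. KLK1 is a serine protease that frees kinin peptides from kininogen, and CST3 is a secreted inhibitor of cysteine proteases made by very many cell types, macrophages among them.

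The WT library held 13619 barcodes with a median of 3216 unique molecular identifiers (UMIs, counted molecules), and the PIGinH11 library held 14964 with a median of 1181.5. The libraries shared 60 barcode sequences. After filters, 11854 WT and 13126 PIGinH11 nuclei were clustered without use of the 5 genes or the 15 enzymes with a symbol. Enzymes without a matching symbol could not be left out in this way. From marker genes, 11 classes with at least 20 nuclei in each library were named. Acinar-like nuclei numbered 8442 in WT and 9260 in PIGinH11, with median depths of 2851 and 1179 UMIs. Of the 12 acinar markers, 11 were highest in this class in WT and 9 in PIGinH11, and their summed level was 25927 and 23628 CPM, a gene's UMIs scaled to the same class total in every class and library. Summed ductal markers stood at 731 and 889 CPM in acinar-like nuclei, against 48186 and 40212 CPM in ductal-like nuclei.

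In acinar-like nuclei GP2 was 2.02-fold higher in PIGinH11 than in WT, KLK1 was 3.63-fold lower and CST3 was 2.91-fold lower. SYCN was 1.33-fold lower, and SPINK1 differed by less than its counting error. Thus 2 of the 5 genes were at least 2-fold lower in PIGinH11, where 2.14% of the 15768 genes that reached 20 UMIs in both libraries were, and 1 was at least 2-fold higher, where 17% of all genes were. The median log2 ratio over all genes was 0.23, with a 5th percentile of −0.67 and a 95th percentile of 1.50, so each ratio is also given relative to that median.

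SYCN, a small granule protein that binds the inner face of the zymogen granule membrane and is needed for efficient exocytosis, stood at 776 CPM (interval 766 to 786) in WT and 584 CPM (572 to 596) in PIGinH11. The levels rest on 23471 and 9132 UMIs. The PIGinH11 level was the lower, and the intervals did not overlap. On the log2 scale the ratio of PIGinH11 to WT was −0.41 (−0.45 to −0.38), or −0.64 relative to the median of all genes.

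GP2, the major glycoprotein of the zymogen granule membrane, which is anchored by a lipid and shed into the juice, stood at 1264 CPM (1251 to 1277) in WT and 2551 CPM (2526 to 2576) in PIGinH11. It was the only one of the 5 that was higher in PIGinH11. Its log2 ratio was 1.01 (0.99 to 1.03), or 0.78 relative to the median of all genes, at percentile 83.5 of all genes. The direction held under all 10 alternative settings, but the ratio was below 2-fold in 7 of them, with a lowest log2 value of 0.78.

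SPINK1, the secretory trypsin inhibitor, stood at 614 CPM (605 to 623) in WT and 607 CPM (594 to 619) in PIGinH11. The levels overlapped, with a log2 ratio of −0.02 (−0.05 to 0.02) and of −0.25 relative to the median. This near equality depended on the setting, since the log2 ratio ran from −1.08 to 0.51 over the alternatives.

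KLK1, tissue kallikrein, stood at 408 CPM (401 to 416) in WT and 112 CPM (107 to 118) in PIGinH11, from 12353 and 1757 UMIs. The log2 ratio was −1.86 (−1.93 to −1.79), or −2.09 relative to the median, and 0.457% of all genes lay lower. CST3, cystatin C, stood at 221 CPM (216 to 227) in WT and 76.2 CPM (71.9 to 80.6) in PIGinH11, from 6696 and 1191 UMIs. Its log2 ratio was −1.54 (−1.63 to −1.45), or −1.77 relative to the median, and 0.679% of all genes lay lower. Subtracting the UMIs per nucleus found in endothelial-like and stellate-like nuclei of the same library brought KLK1 to −0.88 and turned CST3 to 0.13. These values have no interval. For CST3, 0.692 (0.618 to 0.771) was taken from 0.793 UMIs per nucleus in WT, and 0.0763 (0.0583 to 0.0983) from 0.129 in PIGinH11. Little was left, so the sign of the CST3 value is uncertain. Depth also differed between the classes, with WT medians of 3860 (endothelial-like), 3262.5 (stellate-like) and 2851 UMIs (acinar-like). Whether those classes hold CST3 transcript of their own, which the subtraction would also take away, was not tested.

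**Figure D1:**
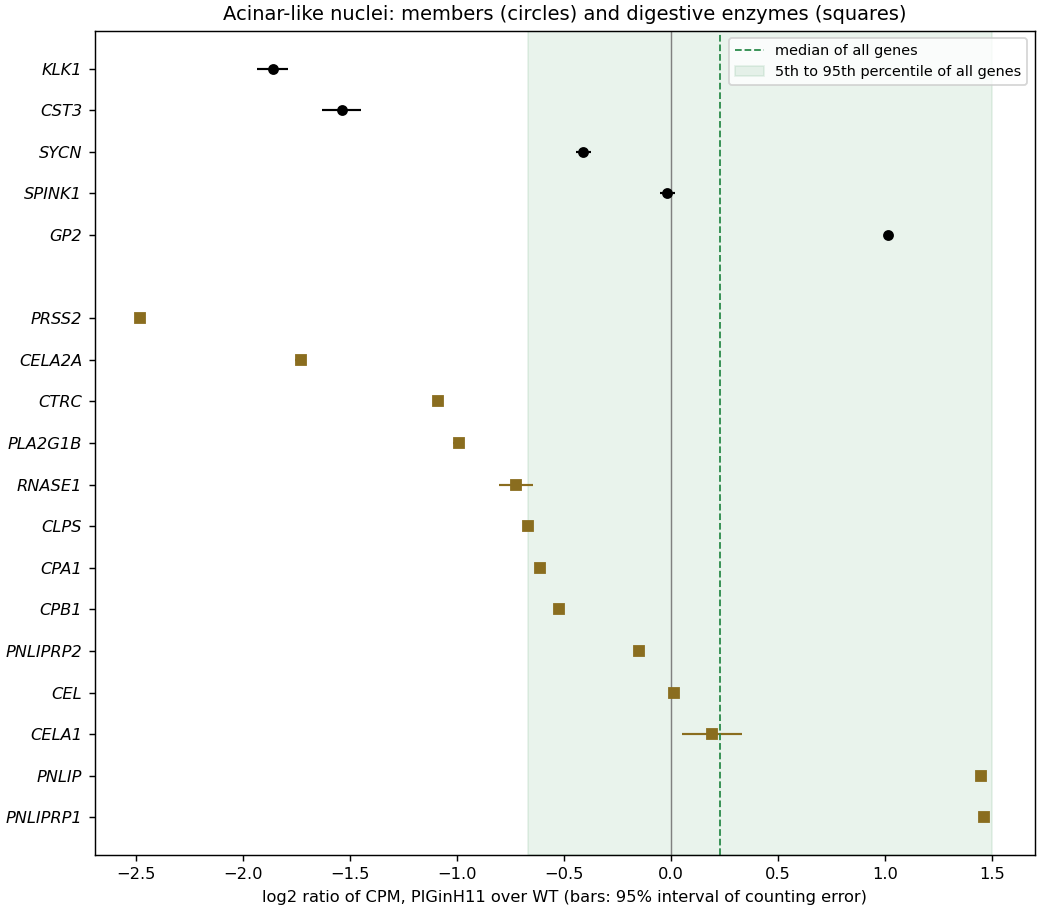
Log2 ratio of CPM in acinar-like nuclei, PIGinH11 over WT (x axis), for the 5 genes (circles) and the digestive enzymes (squares), with 95% intervals of counting error, the median of all genes (dashed line, 0.23) and their 5th to 95th percentile (band). KLK1 at −1.86 and CST3 at −1.54 lie left of the band with PRSS2, CELA2A, CTRC, PLA2G1B and RNASE1, and GP2 at 1.01 lies inside it.

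The share of acinar-like nuclei with at least 1 UMI of a gene moved with depth as well as level. For GP2 it was 84.9% in WT and 83.1% in PIGinH11, and 42.2% and 62.9% once every nucleus was thinned to 500 UMIs. SYCN was found in 77.5% and 45.7% of nuclei, or 32.7% and 24.1% after thinning. SPINK1 was found in 75.0% and 44.8%, or 28.0% and 22.2% after thinning. For KLK1 the shares were 61.8% and 14.3%, or 19.2% and 5.38% after thinning, and for CST3 they were 37.7% and 9.14%, or 9.80% and 3.19%. At equal depth GP2 was therefore found in a larger share of PIGinH11 nuclei, and the other genes in a smaller share.

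UMIs of these genes were also present in nuclei of a class that should lack granule proteins. Endothelial-like nuclei, with medians of 3860 and 1688 UMIs, held GP2 in 37.7% of WT and 39.7% of PIGinH11 nuclei, SYCN in 46.9% and 22.2%, and SPINK1 in 56.8% and 18.8%. KLK1 was found in 47.3% and 5.50% of them, and CST3 in 35.2% and 5.50%. Per nucleus, endothelial-like and stellate-like nuclei together held 17.2% (WT) and 18.3% (PIGinH11) of the acinar-like GP2 UMIs, but 63.1% and 26.8% of the KLK1 UMIs and 87.2% and 59.4% of the CST3 UMIs. SYCN stood at 38.7% and 27.9%, and SPINK1 at 48.3% and 25.6%. The non-acinar level of 4 of the genes, all but GP2, was thus a larger fraction of the acinar one in WT, as it was for PRSS2 (67.2% and 33.2%), and its part in the differences between libraries was not tested beyond the subtraction above.

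Across the 11 named classes, SYCN, GP2, SPINK1 and KLK1 were highest in acinar-like nuclei in both libraries. Endocrine and immune nuclei without a class name were not ranked. The unnamed immune ones (24 nuclei and 66752 UMIs in WT) held 68 SYCN, 58 SPINK1 and 53 KLK1 UMIs. In WT these are larger shares than in acinar-like nuclei, and enzymes took 12.1% of the UMIs there. Of all genes, 8.82% were highest there in WT and 8.3% in PIGinH11. SYCN and GP2 kept this place under every alternative that compared classes. In WT, KLK1 was highest in mural-like nuclei with the mean over nuclei or with nuclei thinned to 500 UMIs, and SPINK1 was highest in gamma-like nuclei without doublet removal. SYCN in WT was followed by Schwann-like nuclei at 380 CPM (289 to 490), and the other 10 classes ranged from 142 to 380 CPM. In PIGinH11 the other classes ranged from 24.2 to 352 CPM, again with Schwann-like nuclei at the top. The acinar-like level of SYCN stood apart from the next named class in both libraries.

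The gap to the other classes was widest for GP2. In WT its acinar-like 1264 CPM compared with 116 to 442 CPM elsewhere (median 164), mural-like nuclei being next. In PIGinH11 2551 CPM compared with 92.9 to 923 CPM (median 322), Schwann-like nuclei being next. SPINK1 in WT compared with 177 to 315 CPM elsewhere, and in PIGinH11 with 44.9 to 264 CPM, Schwann-like nuclei being next in both.

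KLK1 was less set apart in WT, where the acinar-like 408 CPM overlapped the interval of mural-like nuclei at 362 CPM (264 to 484, 45 UMIs in 37 nuclei). The lowest WT class was alpha-like, at 151 CPM. In PIGinH11 the acinar-like 112 CPM was followed by 70.3 CPM (30.4 to 139) in Schwann-like nuclei, whose wide interval held the acinar-like level. No KLK1 UMI was found in PIGinH11 mural-like, macrophage-like or lymphocyte-like nuclei, with exact upper limits of 28.8, 44.6 and 52.4 CPM.

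CST3 was the exception. It was highest in macrophage-like nuclei in both libraries, at 1821 CPM (1533 to 2147, from 141 UMIs in 22 nuclei) in WT and 883 CPM (692 to 1110, from 73 UMIs in 27 nuclei) in PIGinH11. These nuclei had all 9 macrophage markers at their highest in both libraries. A macrophage-like nucleus carried 6.41 CST3 UMIs in WT and 2.70 in PIGinH11, against 0.793 and 0.129 in an acinar-like nucleus. Acinar-like CST3 was thus lower than macrophage-like CST3 by a log2 of −3.04 in WT and −3.54 in PIGinH11. The PIGinH11 over WT log2 ratio in macrophage-like nuclei was −1.04 (−1.47 to −0.63), on the same side as in acinar-like nuclei. Macrophage markers summed to 8.07 and 19.1 CPM in acinar-like nuclei of WT and PIGinH11. The part of macrophage transcripts in the acinar-like CST3 levels was not tested.

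**Figure D2:**
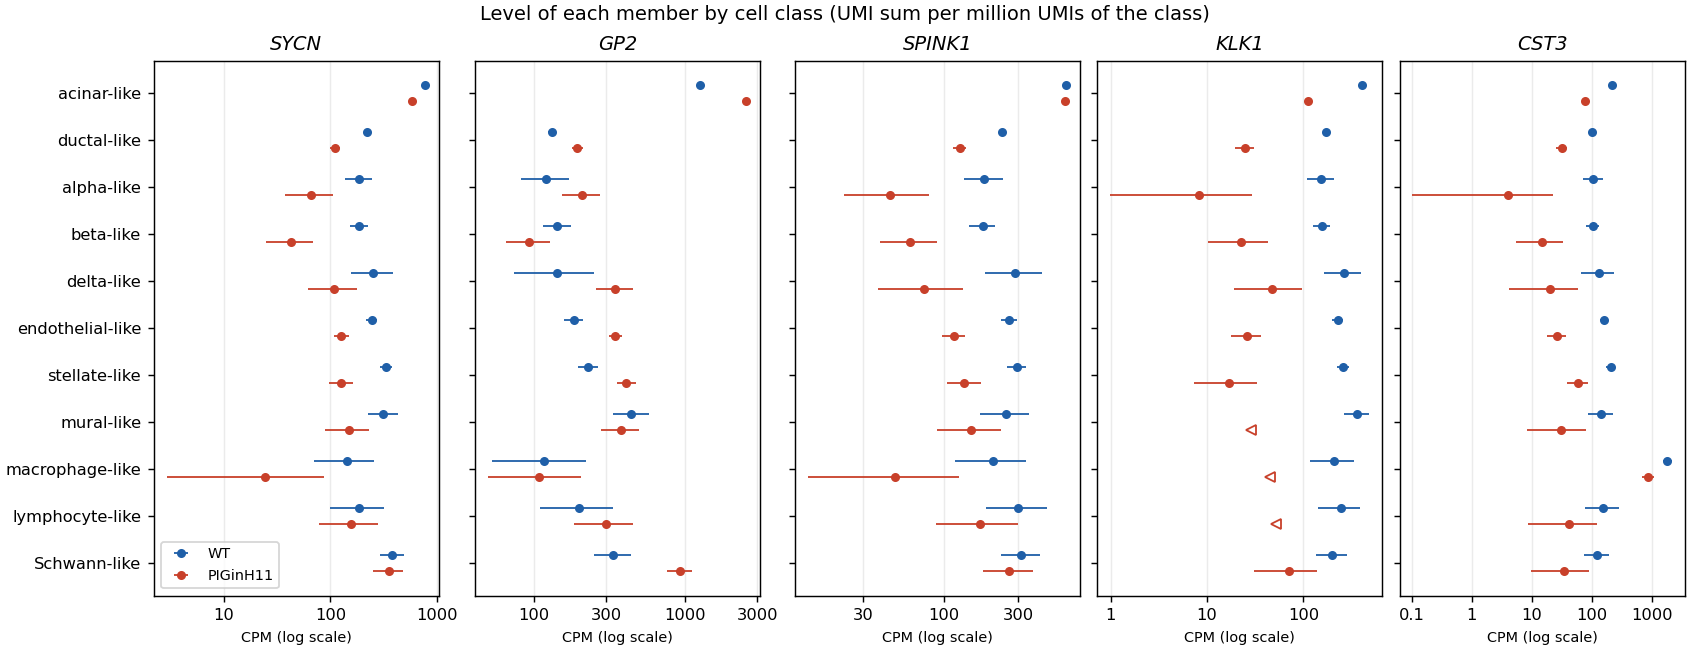
CPM (log x axis) of each gene in the 11 named classes (rows), WT and PIGinH11 side by side, with exact 95% Poisson intervals. SYCN, GP2, SPINK1 and KLK1 are highest in the acinar-like row of both libraries, and CST3 is highest in macrophage-like nuclei, at 1821 and 883 CPM.

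The PIGinH11 over WT direction in the other classes followed the acinar-like one for most genes. KLK1 had log2 ratios of −2.79 in ductal-like and −3.12 in endothelial-like nuclei, each further from 0 than the acinar-like −1.86. In stellate-like nuclei it was at −3.94, from 188 and 8 UMIs. In beta-like nuclei it was at −2.77 (−3.94 to −1.79, from 95 and 9 UMIs), an interval that held the acinar-like value. For CST3 the ductal-like ratio was −1.68 (−1.99 to −1.39), the stellate-like one −1.81 and the endothelial-like one −2.63 (−3.22 to −2.08), beside −1.54 in acinar-like nuclei. In beta-like nuclei CST3 was at −2.79, from 64 and 6 UMIs. SYCN was at −0.99 in ductal-like and −2.13 in beta-like nuclei, below its acinar-like −0.41. SPINK1, level between libraries in acinar-like nuclei, was at −0.91 in ductal-like and −1.19 in endothelial-like nuclei. GP2 was higher in PIGinH11 in ductal-like (0.56), endothelial-like (0.91), stellate-like (0.84) and Schwann-like nuclei (1.46). In mural-like (442 CPM in WT and 375 in PIGinH11) and macrophage-like nuclei (116 and 109 CPM) GP2 was not higher, and the intervals overlapped. In CPM it was lower in beta-like nuclei, at −0.62 (−1.22 to −0.05), from 88 and 37 UMIs. Set against the enzyme UMIs of the same beta-like nuclei it was higher, at 1.94. On that measure SPINK1 was also higher, at 0.81 in ductal-like and 0.78 in endothelial-like nuclei. SYCN per enzyme UMI was at 0.73 in ductal-like and 0.43 (−0.40 to 1.17) in beta-like nuclei. KLK1 stayed lower in ductal-like (−1.07), endothelial-like (−1.15) and stellate-like nuclei (−2.05), but not clearly in beta-like ones (−0.21, −1.38 to 0.77). CST3 was at 0.04 (−0.26 to 0.33) in ductal-like and −0.66 in endothelial-like nuclei.

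The enzymes did not shift as a block between libraries. Enzymes of the list took 8.63% of acinar-like UMIs in WT and 6.01% in PIGinH11, a log2 ratio of −0.52. Without the trypsinogen PRSS2, the most counted enzyme of the list in WT, the ratio was 0.09. In PIGinH11 the most counted one was PNLIPRP1, with 300357 UMIs beside 100001 for PRSS2. Of the 13 enzymes with at least 20 UMIs in each library, 3 were at least 2-fold lower, beside 2.14% of all genes, and 2 at least 2-fold higher, a share near the 17% of all genes. The median of the enzymes was −0.61. PRSS2 was at −2.48, the elastase CELA2A at −1.73 and the chymotrypsin CTRC, which also degrades trypsinogen, at −1.09. Pancreatic lipase (PNLIP) was at 1.45 and its relative PNLIPRP1 at 1.46.

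Between these ends lay the phospholipase PLA2G1B (−0.99), the ribonuclease RNASE1 (−0.72), colipase CLPS (−0.67) and the carboxypeptidases CPA1 (−0.61) and CPB1 (−0.52). PNLIPRP2 (−0.15), the bile salt-activated lipase CEL (0.01) and CELA1 (0.19) differed little. KLK1 and CST3 therefore had ratios like those of the proteases PRSS2 and CELA2A, SYCN had one like CPB1, and GP2 was higher in PIGinH11, as were PNLIP and PNLIPRP1 of the enzymes. The chymotrypsin-like CTRL had 9 UMIs in WT and 1055 in PIGinH11 and was too rare in WT for the 20-UMI minimum.

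Set against the enzymes of the same nuclei, SYCN gave 8.99 UMIs per 1000 enzyme UMIs in WT acinar-like nuclei and 9.72 in PIGinH11. SPINK1 gave 7.11 and 10.1. GP2 gave 14.6 and 42.4, which was the widest shift. KLK1 gave 4.73 and 1.87, and CST3 gave 2.56 and 1.27. On the log2 scale GP2 per enzyme UMI was 1.54 higher in PIGinH11 and SPINK1 0.50 higher. SYCN was 0.11 higher. KLK1 was at −1.34 and CST3 at −1.02, so both were lower in PIGinH11 even relative to the lowered enzymes. The small SYCN and SPINK1 differences turned to −0.50 and −0.10 once PRSS2 was left out of the enzyme sum, while GP2 (0.93), KLK1 (−1.95) and CST3 (−1.63) kept their direction. With free RNA subtracted SYCN turned to −0.37, and CST3 came to −0.07, both without an interval.

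The same ratio to the enzymes was compared between acinar-like nuclei and the other classes. GP2 per 1000 enzyme UMIs was higher in acinar-like nuclei than in all 10 other classes in WT (14.6 against a median of 4.75) and than in 6 of 10 in PIGinH11 (42.4 against 32.4), with the interval holding no difference for the other 4. SYCN was higher than in 7 of 10 classes in WT (8.99 against a median of 6.40), but in PIGinH11 it was higher than in none and lower than in 3 (9.72 against 11.5). SPINK1 was not distinguishable from 9 of 10 classes in either library, with 7.11 against 6.74 in WT and 10.1 against 11.2 in PIGinH11. KLK1 was lower in acinar-like nuclei than in 4 of 10 classes in WT and 3 of 10 in PIGinH11, with medians elsewhere of 5.69 and 1.92. CST3 was lower than in 6 and 4 of the 10 classes. The part of free RNA in these ratios was not tested.

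**Figure D3:**
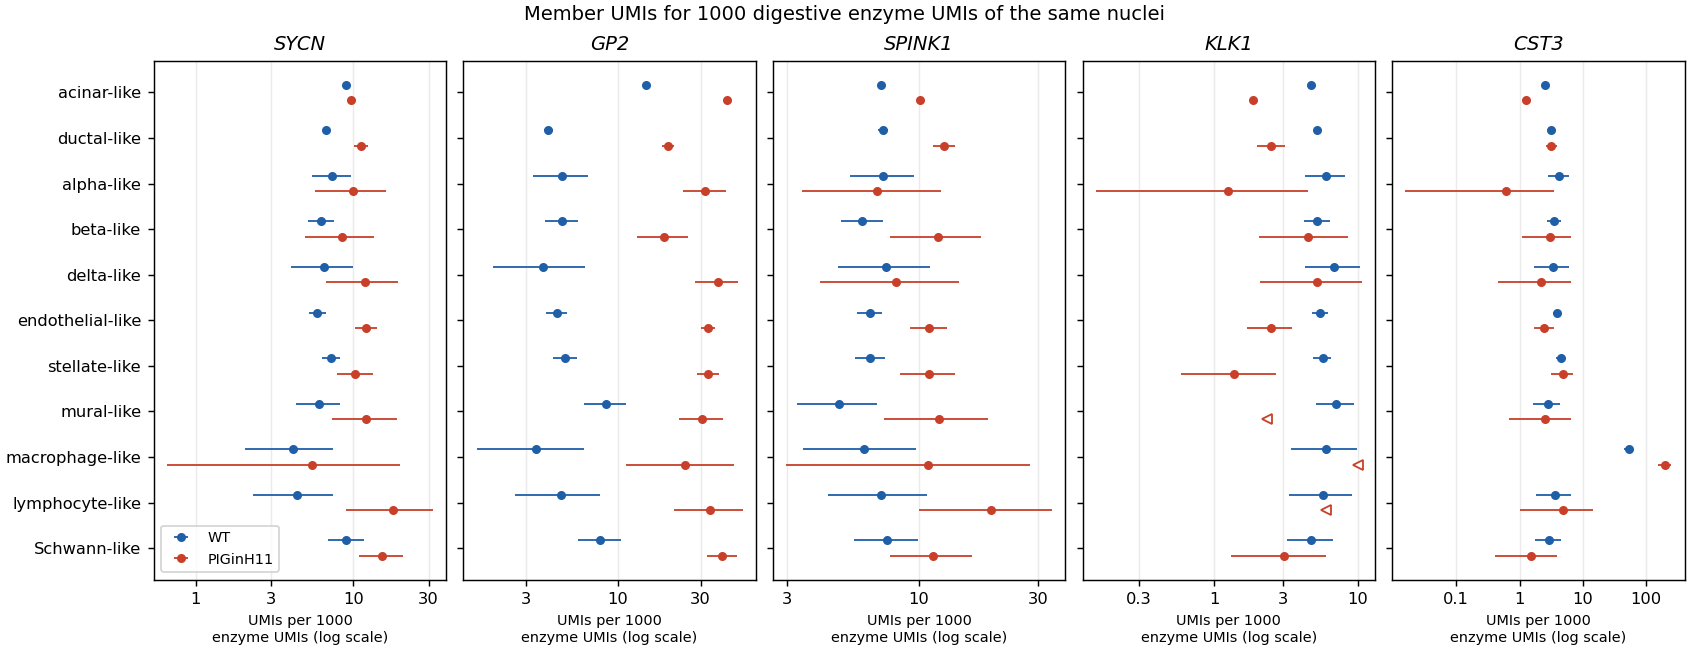
UMIs of each gene per 1000 enzyme UMIs (log x axis) in the 11 named classes, WT and PIGinH11 side by side, with exact 95% intervals. GP2 in acinar-like nuclei is to the right of every other class in WT (14.6 against a median of 4.75), while SPINK1 is near a level across classes (7.11 against 6.74).

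Within acinar-like nuclei the genes differed in how far they went with enzyme content. Nuclei thinned to 500 UMIs were put into 5 equal bins of rising enzyme UMIs, which ran from a mean of 21.5 to 88.8 of 500 in WT and from 15.8 to 43.1 in PIGinH11. In WT, CST3 was 6.69-fold (5.26 to 8.60) more frequent among the other UMIs in the top bin than in the bottom one, KLK1 4.07-fold (3.49 to 4.75), SYCN 3.78-fold (3.37 to 4.23) and SPINK1 2.94-fold (2.60 to 3.33). GP2 was only 1.30-fold (1.19 to 1.42) more frequent. Ribosomal protein genes (3.90-fold) and mitochondrial genes (6.14-fold) moved with the enzymes in the same nuclei. Their part in these folds was not tested, nor was that of free RNA. The most counted enzyme was PRSS2 in WT and PNLIPRP1 in PIGinH11, so the bins did not rest on the same enzyme mix.

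In PIGinH11, where the enzyme range was narrower, the folds were smaller for 4 of the genes. The top bin held 1.58-fold more SYCN, 1.64-fold more SPINK1 and 1.54-fold (1.17 to 2.03) more KLK1. GP2 was 1.38-fold (1.30 to 1.46) more frequent, and the CST3 interval held no difference (1.32, 0.94 to 1.85). Ribosomal protein genes were 1.66-fold more frequent. In single nuclei the Spearman correlation with enzyme UMIs was weak throughout, from 0.0365 (GP2) to 0.242 (SYCN) over 8442 WT nuclei and from 0.0318 (CST3) to 0.0881 (GP2) over 9260 PIGinH11 nuclei, in sparse counts that share library and depth. Single enzymes also varied in their correlation with the other enzymes. In WT it ran from −0.006 (PNLIPRP2) and −0.0005 (PNLIPRP1) to 0.642 (PRSS2), so the low GP2 value was not particular to GP2. In PIGinH11 it ran from 0.0392 (RNASE1) to 0.189 (CEL). Pairs of the 5 genes were not more alike than 0.0702 (SYCN and KLK1 in WT).

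**Figure D4:**
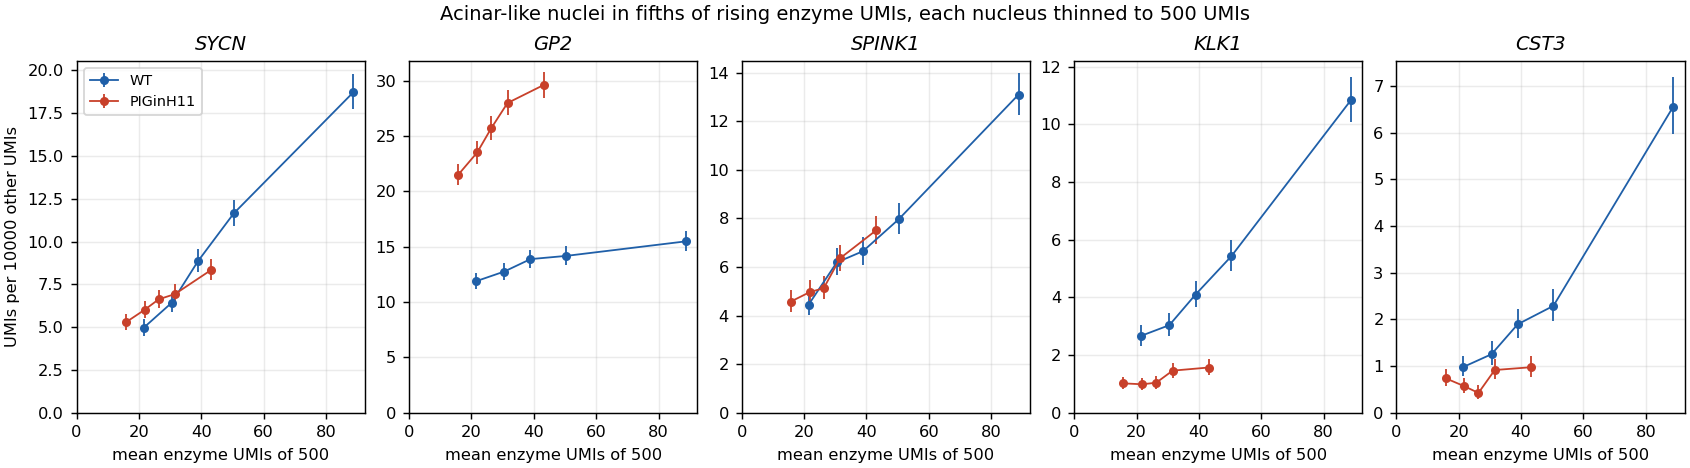
UMIs of each gene per 10000 other UMIs (y axis, from 0) in acinar-like nuclei against the mean enzyme UMIs of 500 in each of 5 equal bins of nuclei (x axis), with exact 95% Poisson intervals. GP2 is nearly flat in WT (1.30-fold from the bottom to the top bin), while CST3 (6.69-fold), KLK1 (4.07-fold), SYCN (3.78-fold) and SPINK1 (2.94-fold) climb from the lowest to the highest bin.

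Acinar-like nuclei were split into 8 subclusters of at least 20 nuclei in each library, again without the 5 genes. GP2 was higher in PIGinH11 in 8 of 8, with log2 ratios from 0.75 to 1.18. KLK1 was lower in 8 of 8 (−2.32 to −1.30), and so was CST3 (−1.87 to −0.89). SYCN was lower in 7 of 8 (−0.71 to −0.04), subcluster 5 being the exception. SPINK1 was lower in 3 and higher in 4 (−0.81 to 0.35), so that its near equality over all acinar-like nuclei was a balance of subclusters. SPINK1 was lowest in subclusters 1 and 2, at −0.81 and −0.66, the shallowest ones (medians of 1784 and 869.5 UMIs, and of 1016 and 712 UMIs). There the enzyme sum was also at −0.96 and −1.05. In subcluster 8, however, the enzyme sum was at −1.12 and SPINK1 at 0.14 (0.02 to 0.25). Ductal markers summed to 1333 to 1712 CPM in subclusters 1 and 2, above the 477 to 937 CPM of the other subclusters but far below ductal-like nuclei. Compared within acinar-like nuclei, 7 ductal markers passed the naming limit in subcluster 1 and 5 in subcluster 2. The genes leading subcluster 2 included INS. Subclusters 1 and 2 held 22.6% and 15.5% of acinar-like nuclei in WT, and 24.8% and 23.9% in PIGinH11. Beta cell markers summed to 482 and 1044 CPM in WT subclusters 1 and 2 and to 198 and 191 CPM in PIGinH11, against 9726 and 6048 CPM in beta-like nuclei. Stellate markers were the higher in PIGinH11, at 370 and 200 CPM against 165 and 157 CPM in WT. The part of these other cells' transcripts in the ratios was not tested.

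Subcluster 8, with 426 WT and 296 PIGinH11 nuclei, held the largest enzyme share, 25.8% and 11.8% of UMIs. The genes leading it against the other subclusters included CST3 itself, CELA2A, the alpha cell marker GCG, PRSS2, CLPS and the ribosomal RPLP1. Alpha cell markers summed to 204 CPM there in WT and 28.2 in PIGinH11, against 45.8 and 29.0 CPM over all acinar-like nuclei. Acinar markers summed to 18086 and 20550 CPM, the lowest of the 8 subclusters in each library. The part of alpha cell transcripts in the levels was not tested. In CPM each of the 5 genes was highest in subcluster 8 in both libraries, and the share of all genes highest there was not counted. Per 1000 enzyme UMIs, GP2 was instead lowest there, at 6.01 in WT and 26.2 in PIGinH11. SPINK1 was lowest there in WT (4.29). CST3 was highest there in both libraries (3.90 and 3.39), and KLK1 in PIGinH11 (2.50). The levels in CPM were 2022 in WT and 1268 in PIGinH11 for SYCN, 1549 and 3093 for GP2, and 1105 and 1214 for SPINK1. KLK1 was at 1220 and 296 CPM and CST3 at 1005 and 401 CPM. Without these nuclei the acinar-like log2 ratios were −0.28 for SYCN, −1.72 for KLK1 and −1.36 for CST3.

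**Figure D5:**
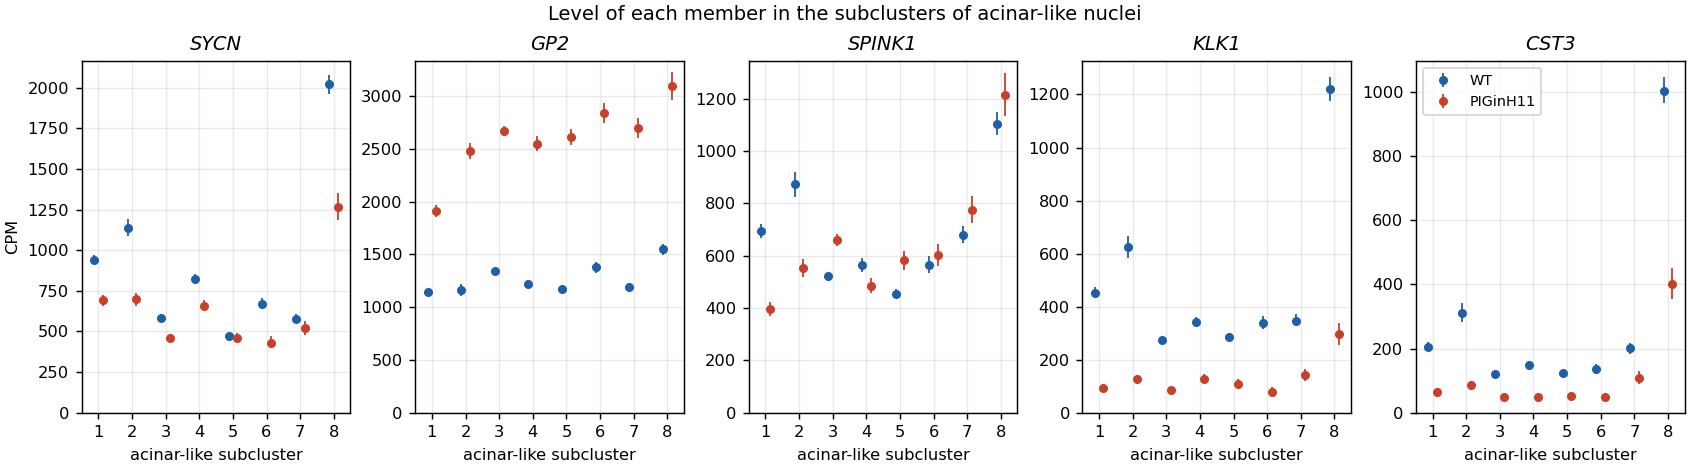
CPM of each gene (y axis, from 0) in the 8 acinar-like subclusters, WT and PIGinH11 side by side, with exact 95% Poisson intervals. GP2 is higher in PIGinH11 and KLK1 and CST3 are lower in all 8 subclusters, and subcluster 8 holds the highest KLK1 (1220 CPM in WT) and CST3 (1005 CPM in WT).

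A further cluster met only 1 marker of its best class, where 3 were needed, and was left unnamed. It held 353 WT and 89 PIGinH11 nuclei, with enzymes at 60.5% and 22.6% of UMIs. Enzymes such as CELA2A and PRSS2 were among the genes leading it, and so were CST3 and KLK1 themselves. KLK1 stood at 2968 CPM in WT and 579 CPM in PIGinH11 there, and CST3 at 2553 and 906 CPM. SYCN was at 4327 and 2632 CPM, SPINK1 at 1933 and 1990 CPM, and GP2 at 2237 and 4043 CPM. In CPM the directions between libraries were those of acinar-like nuclei for SYCN, GP2, KLK1 and CST3. Most genes that could be compared, however, were higher in PIGinH11 in this cluster. Over the 464 genes that reached the minimum count in both libraries, the median log2 ratio was 2.54, against 0.23 in acinar-like nuclei. Of them, 333 were at least 2-fold higher. The cluster held 1281820 UMIs in WT but 94971 in PIGinH11, so the same minimum count was a higher CPM in PIGinH11. Genes low in PIGinH11 were thus more readily left out. Enzymes also took 60.5% of UMIs in WT but 22.6% in PIGinH11, so the other genes shared a larger part of the total in PIGinH11. The parts of the minimum count and of the enzyme share in the median, and in the GP2 difference, were not tested. The median covers only the genes compared and may not describe the typical gene of the cluster. GP2, less than 2-fold higher, lay below the median of the genes compared here, while it lay above the median in acinar-like nuclei. Whether GP2 would lie below the median of all genes of the cluster was not tested.

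The genes with the most similar profiles over the 22 class and library pairs differed between the 5. Values are Pearson correlations of log2(CPM + 5) among 8872 genes, and the pairs share libraries and depth. Both libraries enter each value, so differences between classes and between libraries are mixed, and neither library was taken alone. SYCN was closest to CPB1 (0.942), the pancreatic serpin SERPINI2 (0.931), the endoplasmic reticulum protein ERP27 (0.924), CPA1 (0.922) and CEL (0.910). SPINK1 was also closest to CPB1 (0.955), then CPA1 (0.927) and CLPS (0.910), MT1A (0.890) and SERPINI2 (0.889). SYCN and SPINK1 were close to each other, at 0.945.

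GP2 was closest to PNLIPRP1 (0.963), DNASE1 (0.954), the pancreatic disulfide isomerase PDIA2 (0.948), EFEMP1 (0.943) and MASP2 (0.941). KLK1 was closest to PRSS2 (0.906), RN18S (0.896), CELA2A (0.888), PLA2G1B (0.887) and MT1X (0.883). GP2 and KLK1, both highest in acinar-like nuclei, had a correlation of only 0.102 over the 2 libraries together. Between libraries they moved in opposite directions in acinar-like nuclei (log2 ratios of 1.01 and −1.86). The part of that difference in the correlation was not tested. CST3 had no gene above 0.804 (YIPF6), followed by MAP3K2 (0.790), HSP70.2 (0.786), GSPT1 (0.783) and RPLP1 (0.774).

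Other genes of the same functions were counted in acinar-like nuclei, and the shares of all genes apply to each list that follows. Of 13 genes of the zymogen granule membrane, cargo and exocytosis, 0 were at least 2-fold lower and 1 was at least 2-fold higher, PDIA2 at 1.14, beside 2.14% and 17% of all genes, with a median log2 ratio of −0.07 beside 0.23. The basic helix-loop-helix factor BHLHA15, which acinar cells need to build up their granules, was at −0.62, and SERPINI2 was at −0.53. The vesicle GTPases RAB27B (−0.32), RAB3D (−0.07) and RAB27A (0.12) and the membrane fusion proteins SNAP23 (0.02), STX3 (0.04), VAMP2 (−0.24), STXBP2 (0.30) and STXBP3 (0.30) differed by less than 2-fold. SCAMP1 was at −0.15 and TMED6 at −0.57.

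Of 9 other protease inhibitors and mucosal protection genes, 2 were at least 2-fold lower, the trefoil peptide TFF2 at −1.46 (18356 and 3442 UMIs) and CTRC, which the enzyme list also holds. Another 2 were at least 2-fold higher, SERPINB6 at 1.14 and SPINK5, which had 22 and 28 UMIs. The median was −0.19. The Kunitz inhibitors SPINT1 (−0.19) and SPINT2 (−0.43) and antitrypsin SERPINA1 (−0.14) were between.

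Of 3 kallikrein-kinin genes tested, 0 were at least 2-fold lower and 1 was at least 2-fold higher, the peptidase MME (1.36, from 46 and 61 UMIs). Kininogen KNG1, the substrate of kallikrein, was at −0.63 (4328 and 1442 UMIs), and the kinin-cutting carboxypeptidase CPM was at 0.19. Of 11 lysosomal proteases and other cystatins, the secreted cystatin CST6 was at least 2-fold lower (−1.06, from 338 and 84 UMIs) and the cytosolic CSTA at least 2-fold higher (1.90, from 55 and 106 UMIs), with a median of −0.15. Cystatin B (CSTB) was at −0.29. The cathepsins CTSB (0.24), CTSA (0.19), CTSC (−0.01), CTSD (−0.22), CTSS (−0.20), CTSZ (−0.15) and CTSH (−0.36) and the protease LGMN (−0.04) differed by less than 2-fold.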

How the data were processed

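Single-nucleus RNA was sequenced from the pancreas of 1 WT and 1 PIGinH11 pig. The authors deposited raw UMI counts per gene and barcode, made with Cell Ranger on Sscrofa11.1, before doublet removal and filters. The study's methods name version 3.1.0 and the matrix headers 5.0.0. The 5 genes and all gene lists were chosen with earlier results of these data known. Named genes are the 5, list genes with at least 100 UMIs in acinar-like nuclei of both libraries together (enzymes with at least 20 in each library), and the 5 genes of most similar profile. CTRL and SPINK5 were named after their values were seen, because a count rests on them.

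The limits were 270 to 3700 genes, a ceiling of 13000 UMIs, and under 10% of UMIs from mitochondrial genes. The methods print a limit of 1300 UMIs, which was run as an alternative. Doublets were called with Scrublet (scanpy 1.11.5), in place of DoubletFinder, at 0.8% per 1000 barcodes. Scrublet scores marked 1484 barcodes in WT and 1791 in PIGinH11, and those that had passed the limits were removed. Nuclei were clustered on 2000 variable genes and 30 principal components, with Harmony over libraries and Louvain (igraph 0.11.9) at resolution 1. The 5 genes, list genes with a symbol, and ribosomal and mitochondrial genes were left out of the clustering. Ribosomal genes here are those named RPL or RPS with a number, so RPLP1 was not left out. A cluster took a class name, written X-like, with at least 3 markers at a log2 difference of 1 or more, provided its leading genes did not go against the name. Rebuilt names may differ from the study's.

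UMIs were summed per class and library and scaled to the class total as CPM. Intervals were Poisson for sums, Clopper–Pearson for shares and conditional binomial for ratios, at 95% (scipy 1.17.1). A count of 0 is given with the exact upper limit of its interval. Called means past 2-fold. The ratio step was tested on simulated counts for the acinar-like comparison (14580 genes), where 100% of changed genes had the right direction and 95.5% of intervals held the true value. These counts had Poisson error only, which the intervals assume, so they check the calculation. They say nothing of variation between nuclei, animals or libraries, or of free RNA. Python 3.11.15, numpy 2.4.6 and scikit-learn 1.9.0 were used.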

Additional observations from a re-analysis of the deposited data

Results flagged for a closer look

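GP2 in beta-like nuclei had a log2 ratio of PIGinH11 over WT of −0.62 in CPM (88 and 37 UMIs), opposite to the 1.01 of acinar-like nuclei. Per enzyme UMI the beta-like ratio was 1.94 (1.34 to 2.51), on the same side as the acinar-like 1.54. Enzymes took 2.97% of beta-like UMIs in WT and 0.504% in PIGinH11. The difference between the classes was not tested, since each group has 1 library.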

How the results depend on the processing

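No paired analysis was possible because each group has 1 library. Values are log2 ratios of PIGinH11 over WT in acinar-like nuclei, always for SYCN, GP2, SPINK1, KLK1 and CST3 in this order unless named, first in CPM (−0.41, 1.01, −0.02, −1.86 and −1.54 as reported) and then per enzyme UMI (0.11, 1.54, 0.50, −1.34 and −1.02). Leaving doublets in and raising the Louvain resolution to 2 moved no ratio by more than its interval. Without doublet removal 3 of the 5 genes, not 4, were highest in acinar-like nuclei (of 10 classes, with no macrophage-like one), and 4 enzymes, not 3, were at least 2-fold lower. The mean over nuclei and thinning also left 3 genes highest there. Dropping the minimum count left 3 enzymes at least 2-fold lower. Of 108 values under the alternatives 60 moved beyond that interval (a count by over 1.5 times) and 4 turned direction, and beyond what each alternative itself changes the cause was not tested. With the limit of 1300 UMIs the values were −0.83, 0.99, −1.08, −2.69 and −2.22, and per enzyme UMI 0.48, 2.30, 0.23 and −0.91 (KLK1 within its interval). Then 2 of the 5 genes were highest in acinar-like nuclei among the 3 classes left to compare, and 8 enzymes were at least 2-fold lower. With the enzyme-led unnamed cluster counted as acinar-like they were −0.63, 0.97, −0.12, −2.15 and −1.96, and per enzyme UMI 0.19, 1.79, 0.70 and −1.15 (KLK1 within). Scaling by the median of gene ratios gave −0.64, 0.78, −0.25, −2.09 and −1.77. A denominator without enzyme, member, ribosomal and mitochondrial genes gave −0.45, 0.97 and −0.062 (KLK1 and CST3 within). The mean over nuclei gave −0.48, 0.96, −0.36, −2.04 and −1.67, with 6 enzymes at least 2-fold lower. Thinning to 500 UMIs gave −0.52, 0.97, −0.35, −2.01 and −1.73, with 0.21, 1.70 and 0.38 per enzyme UMI for SYCN, GP2 and SPINK1 and 5 enzymes at least 2-fold lower. Subtracting free RNA, without intervals, gave −0.17, 0.51, −0.88 and a reversed 0.13 for SYCN, SPINK1, KLK1 and CST3. Per enzyme UMI it gave a reversed −0.37, then 0.79, 0.31, −1.08 and −0.072, and 1 enzyme was at least 2-fold lower. The last 2 alternatives were chosen after seeing the data. Without PRSS2 in the enzyme sum the values per enzyme UMI were a reversed −0.50, 0.93, a reversed −0.10, −1.95 and −1.63. Without subcluster 8 they were −0.28, −1.72 and −1.36 for SYCN, KLK1 and CST3, and per enzyme UMI 0.044, 1.35 and 0.34 for SYCN, GP2 and SPINK1. KLK1 and CST3 stayed at least 2-fold lower in CPM under all alternatives except the subtraction of free RNA. Fewer UMIs per PIGinH11 nucleus limit what the rarer genes and classes can show there.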
